A study of Homo sapiens with 8 samples.

Results

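The genes described here were 45 listed genes of the cyclin and cyclin-dependent kinase (CDK) system. They comprised 19 cyclins, 18 kinases, 7 CDK inhibitors and the CDK-associated phosphatase gene CDKN3, out of 20162 protein-coding genes. They were listed by name, by a rule that used no measured value, although earlier results of these data were known when the list was made. Each was scored by the G4 ChIP-seq intervals that shared at least 1 bp with the 1 kb on either side of any of its annotated transcription start sites (TSSs), on the genome build hg19 with GENCODE annotation. All 45 genes were found in that annotation.

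G4 ChIP-seq recovers chromatin that carries DNA G-quadruplexes by immunoprecipitation with the antibody BG4. It was carried out in K562 cells, a chronic myelogenous leukemia line that resembles erythroid precursors, and in HepG2 cells, a hepatocellular carcinoma line with hepatocyte features, with no treatment named for either. Each line was represented by 3 G4 ChIP libraries, which the series description calls technical, and 1 input library. The authors deposited 4 interval lists made by merging peak calls over replicates. The labels of all 4 lists mark the cells as asynchronous, so phases of the cell cycle are not separated. For K562, the high-confidence list held stretches that were called in 5 or more of 8 replicates. For HepG2, the minimum was 6 of 9. The lower-confidence lists needed a call in 2 replicates. The paper describes 3 independent experiments per line, with 2 to 3 technical replicates in each. The replicates counted are therefore not all independent, and a call in 2 of them can come from 1 experiment. The lists held 9205 and 19249 intervals for K562, and 8805 and 28387 for HepG2. An interval carried a position and nothing else, so the depth of the libraries is unknown, no spread between replicates could be computed, and every comparison below is a description of merged lists without a test. A gene without an interval was one at which no stretch passed in enough replicates. In the following, a peak is an interval of a high-confidence list.

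Of the markers checked for the identity of the lines, TAL1 carried a K562 peak and GATA1, KLF1 and HBG2 a lower-confidence K562 interval, and these erythroid genes had no interval in HepG2. The hepatocyte genes APOA1 and HNF4A carried HepG2 peaks and had no interval in K562. The erythroid gene HBG1 and the hepatocyte genes ALB, AFP and TTR had no interval in either line.

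A G-quadruplex (G4) is a DNA structure in which runs of guanine stack into planar tetrads, and it can form in G-rich promoter sequence. Cyclins are regulatory subunits that switch on partner kinases. D-type and E-type cyclins act with CDK4, CDK6 and CDK2 to carry cells from G1 into S phase, and A-type and B-type cyclins act with CDK2 and CDK1 through S phase, G2 and mitosis. A further branch of the family, including the kinases CDK7, CDK9, CDK12 and CDK13 with cyclins H, T and K, acts on RNA polymerase II. CDK7 with cyclin H is also the CDK-activating kinase, and so acts on the cell cycle as well. The CIP/KIP and INK4 proteins inhibit the cell cycle kinases, and several are tumour suppressors.

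The reference sequence of these promoters was searched for G4 motifs, defined as 4 runs of at least 3 G separated by loops of 1 to 7 bases, on either strand. The following 6 motifs, in 4 genes, lay entirely within peaks of both lines, and are shown because they are the sequences at which both maps and the motif coincide. Each is given 5′ to 3′ on the strand that carries the G runs, with the G runs in capitals and the loops in lower case. The CCND3 site is at chr6:41909658-41909677 on the minus strand, the CCNF site at chr16:2479299-2479317 and the CCNK site at chr14:99947535-99947556, both on the plus strand. The CCNE1 sites are at chr19:30302692-30302714 on the minus strand (a), and at chr19:30302741-30302761 (b) and chr19:30302765-30302782 (c) on the plus strand.
CCND3: GGGGccgcGGGaGGGaGGGG
CCNE1 motif a: GGGacGGGGaatcaGGGGcGGGG
CCNE1 motif b: GGGGcGGGtccGGGGGcGGGG
CCNE1 motif c: GGGacGGGGcGGGacGGG
CCNF: GGGcGGGacatGGGcGGGG
CCNK: GGGGcGGGaccgacGGGatGGG
In 5 of the 6 the G runs were on the strand of the gene's own transcript, and in CCNE1 motif a on the opposite strand. Centres lay at -122 bp (CCND3), -195, -147 and -125 bp (CCNE1), -87 bp (CCNF) and 40 bp (CCNK) from the nearest TSS of the gene, where a negative value is upstream.

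A second set of motifs is shown because they met the same definition at genes without an interval in any of the 4 lists. The CCNA1 site is at chr13:37006573-37006590, the CDK14 site at chr7:90225509-90225534, the CDK17 site at chr12:96793063-96793089 and the CDKN2A site at chr9:21995203-21995224, all with the G runs on the minus strand.
CCNA1: GGGcGGGGcaGGGcGGGG
CDK14: GGGGcgaGGGcgagtGGGccggcGGG
CDK17: GGGGaGGGGaaaatGGGGGGaggaGGG
CDKN2A: GGGcagctGGGaGGGGaatGGG
The centres of these motifs lay at -51, -114, 66 and 55 bp from a TSS, so motifs as near to a start as those of CCND3 or CCNF were found at genes without an interval. Of these genes, CDKN2A is known to be lost from K562, and copy number was not measured here. The G runs of CDK17 and CDKN2A were on the transcript's strand, within a UTR, and those of CCNA1 and CDK14 were on the opposite strand, within an intron of an annotated transcript.

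Across the 45 genes, 27 (60%) carried a K562 peak and 25 (55.6%) a HepG2 peak. Among all 20162 protein-coding genes, 7191 (35.7%) carried a K562 peak and 6199 (30.7%) a HepG2 peak. Both lines had a peak at 22 of the 45 genes (48.9%), against 24.3% of all coding genes, and at least 1 line had a peak at 30 (66.7%), against 42.1%. The opposite end of the scale differed most in share, because 5 of the 45 genes (11.1%) lacked an interval in all 4 lists, against 41.1% of coding genes. A further 10 genes (22.2%, against 16.7% of coding genes) had lower-confidence intervals at most.

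**Figure D1:**
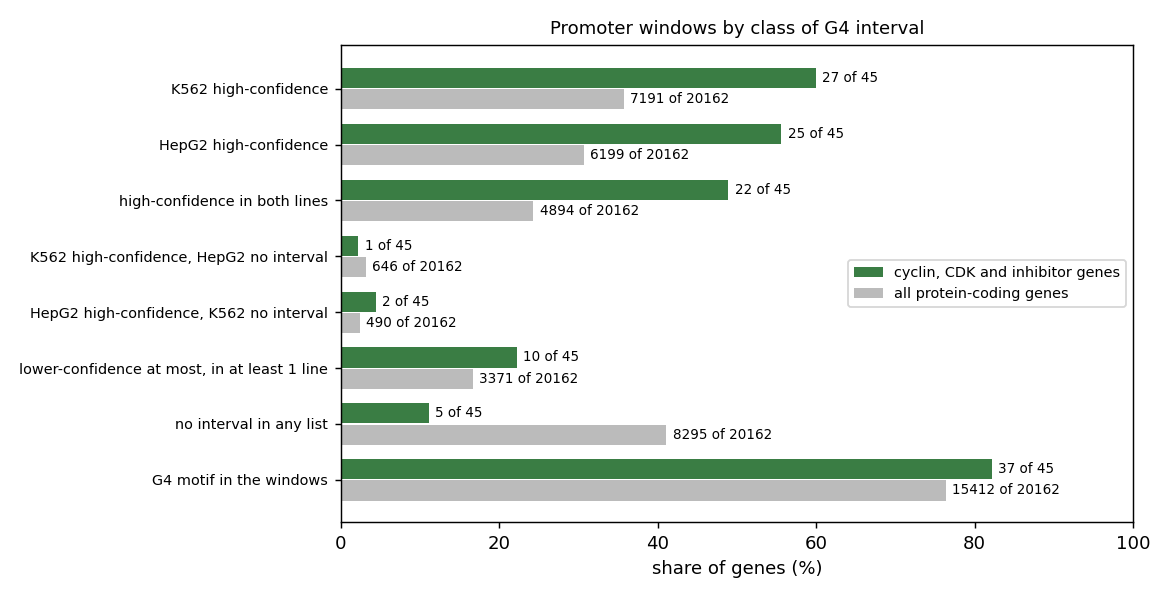
Share of genes in each class of G4 interval, in percent, for the 45 cyclin, CDK and inhibitor genes (green) and all 20162 protein-coding genes (grey), with the numbers of genes at the bars. The green bar is longer for peaks of K562, HepG2 and both lines, and shorter for genes without an interval (5 of 45 against 8295 of 20162).

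The 45 genes had more annotated starts than most, with a median of 8 TSSs (range 1 to 25) against 5.00 for all coding genes, and so longer scored windows. The share with a peak followed the number of TSSs in all coding genes: it was 16.3% in K562 and 13.8% in HepG2 for genes with 1 to 2 TSSs, and 53.1% and 47.1% for genes with at least 11. Of the 19 cyclin, CDK and inhibitor genes with 6 to 10 TSSs, 12 carried a peak in each line, against 43.8% (K562) and 37.5% (HepG2) of coding genes with as many. Of the 14 with at least 11 TSSs, 9 carried a K562 peak and 8 a HepG2 peak. When a single TSS was scored per gene, 26 of the 45 had a K562 peak and 23 a HepG2 peak, against 32.8% and 27.8% of coding genes. Expression and chromatin accessibility were not measured in these libraries, and their part in these shares was not tested.

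**Figure D2:**
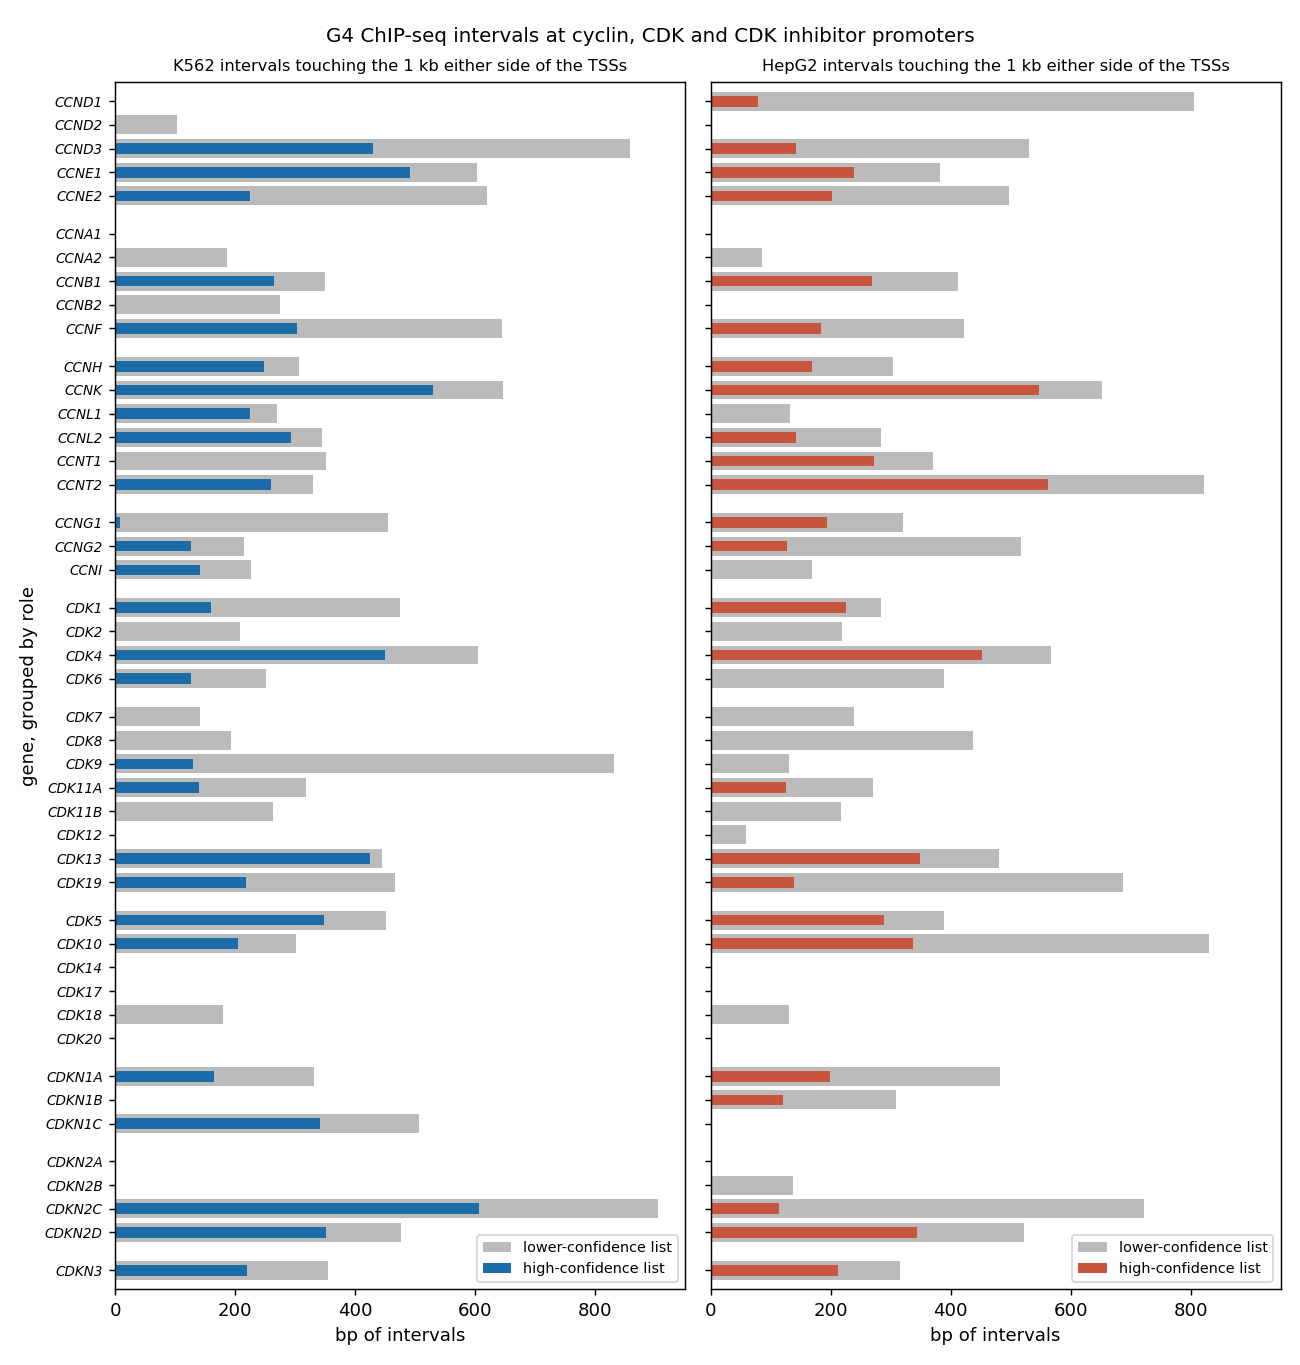
Total length in bp of the intervals that touched the scored windows of each gene, in K562 (left) and HepG2 (right), with lower-confidence intervals in grey and peaks in colour. Genes are in blocks by role, from G1 and S cyclins at the top to CDKN3 at the bottom. CCNK and CCNT2 have the longest HepG2 bars of the high-confidence list, and CCNA1, CDK14, CDK17, CDK20 and CDKN2A have no bar in either panel.

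Among the 5 cyclins of G1 and S phase, 3 carried a K562 peak and 4 a HepG2 peak, beside 35.7% and 30.7% of coding genes. CCNE1, encoding cyclin E1, which activates CDK2 at the start of S phase, had a 492 bp peak in K562 (chr19:30302425-30302916), centred at -228 bp from its TSS. Its HepG2 peak of 239 bp lay wholly inside the K562 peak. The K562 stretch had a GC content of 82.1% and held 6 motifs, more than any other peak of the 45 genes, and 3 of these lay in the HepG2 peak as well. CCND3, encoding cyclin D3, a partner of CDK4 and CDK6, had peaks of 290 bp in K562 and 142 bp in HepG2 at its canonical start, with all 142 bp shared. K562 had a second CCND3 peak of 140 bp, 990 bp past another TSS within the gene, where HepG2 had no interval.

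The other D-type cyclins differed between the lists. CCND1, encoding cyclin D1, had no K562 interval. In HepG2 it had a lower-confidence interval of 246 bp over its start (chr11:69455812-69456057) and a peak of 78 bp inside the gene (chr11:69459476-69459553), whose centre was 3591 bp past the canonical TSS and 1035 bp past the nearest annotated one. The CCND1 peak overlapped a scored window by 5 bp, so that its call as a HepG2 gene rested on the edge of a window. CCND2, encoding cyclin D2, had 1 lower-confidence K562 interval of 103 bp at its start and none in HepG2, although its windows held 15 motifs and those of CCND1 held 13. CCNE2, encoding cyclin E2, carried a peak in both lines at different places: 225 bp over a TSS in K562, and 202 bp centred at -483 bp in HepG2, 31 bp from the start of the neighbouring gene NDUFAF6. Each of the CCNE2 stretches was overlapped by a lower-confidence interval of the other line, so the lines differed there in which stretch passed the higher threshold.

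Of the 5 cyclins of S phase, G2 and mitosis, CCNB1 and CCNF carried peaks in both lines. CCNB1, encoding the mitotic cyclin B1, had peaks of 264 bp (chr5:68462713-68462976) and 269 bp (chr5:68462692-68462960) in K562 and HepG2, which shared 248 bp. No G4 motif was found in the whole of its scored windows. CCNF, encoding the F-box protein cyclin F, had peaks of 303 bp and 184 bp, the HepG2 peak lying inside the K562 peak, with 2 and 1 motifs. CCNA2, encoding the cyclin A of dividing somatic cells, had lower-confidence intervals of 186 bp in K562 and 86 bp in HepG2 that overlapped. CCNB2, encoding a second B-type cyclin, had lower-confidence K562 intervals of 178 and 97 bp and none in HepG2. CCNA1, encoding a cyclin A best known from the male germ line, had no interval in any list.

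All 6 cyclins of transcription and splicing carried a peak in at least 1 line, and 4 of them in both, beside 42.1% and 24.3% of coding genes. With 6 genes in the group, nothing particular to it was read from these counts. CCNK, encoding the partner of CDK12 and CDK13, had the widest K562 peak of the 45 genes, 530 bp at chr14:99947193-99947722, and a HepG2 peak of 548 bp at chr14:99947235-99947782. These shared 488 bp, more than the peaks of any other gene of the 45. CCNT2, encoding a cyclin of the elongation factor P-TEFb, had the widest HepG2 peak, at chr2:135675837-135676398, which contained the whole 259 bp K562 peak at chr2:135676134-135676392. The extra HepG2 stretch at CCNT2 held 3 G4 motifs, and the K562 peak held none. A lower-confidence K562 interval of 329 bp (chr2:135676098-135676426) reached into the most downstream of these motifs. The motifs are shown because they mark where the peaks of the 2 lines parted at this promoter. From the upstream end they lie at chr2:135676045-135676066, chr2:135676068-135676086 and chr2:135676088-135676114, in the annotated UTR of a longer transcript, with the G runs in capitals on the strand opposite to the transcript.
CCNT2 motif a: GGGGaGGGGaGGGGaaagtGGG
CCNT2 motif b: GGGGaGGGaaGGGGcGGGG
CCNT2 motif c: GGGtctaGGGttggcGGGGcgaaGGGG
CCNT1, the other P-TEFb cyclin gene, had a 272 bp HepG2 peak that lay within a 352 bp lower-confidence K562 interval. CCNH, encoding the cyclin of the CDK-activating kinase, had peaks of 247 bp in K562 and 169 bp in HepG2, and CCNL2, encoding a cyclin of CDK11, peaks of 293 bp and 142 bp. At both genes the HepG2 peak lay inside the K562 peak. CCNL1, the paralog of CCNL2, had a 225 bp K562 peak that contained a lower-confidence HepG2 interval of 132 bp.

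The 3 remaining cyclins carried peaks in K562, and 2 of them in HepG2, beside 35.7% and 30.7% of coding genes. CCNG2, encoding a cyclin associated with cell cycle arrest, had peaks of nearly the same position and width, 126 bp in K562 and 127 bp in HepG2 with 122 bp shared, away from the start at -453 and -457 bp. CCNG1, encoding a cyclin induced by p53, had a HepG2 peak of 193 bp and a K562 peak of only 7 bp that did not touch it. The 7 bp were the part of a 455 bp lower-confidence K562 interval that passed in enough replicates, and that interval spanned the HepG2 peak as well. CCNI, a cyclin gene without a well-defined cell cycle role, had a K562 peak of 141 bp, of which 136 bp were in a lower-confidence HepG2 interval.

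Among the 4 cell cycle kinases, CDK4 and CDK1 carried peaks in both lines. CDK4, which encodes the kinase of D-type cyclins, had peaks of 449 bp (chr12:58146054-58146502) and 453 bp (chr12:58146046-58146498) that shared 445 bp and covered its start. No G4 motif lay in either. CDK1, encoding the mitotic kinase, had peaks of 159 bp in K562 and 226 bp in HepG2, the former inside the latter. CDK6, encoding the second kinase of D-type cyclins, had a 126 bp peak in K562 at its canonical start (chr7:92465845-92465970), where HepG2 had no interval of either list. Its lower-confidence HepG2 intervals, of 166 and 223 bp, lay at starts inside the gene, more than 2 kb past the canonical TSS. CDK2, encoding the kinase of cyclins E and A, had lower-confidence intervals of 208 and 218 bp with 205 bp in common and no peak in either line.

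The 8 kinases of transcription and splicing included 3 with peaks in both lines, beside 24.3% of coding genes. CDK13, encoding an RNA polymerase II kinase, had peaks of 424 bp in K562 (chr7:39989007-39989430) and 349 bp in HepG2 (chr7:39989055-39989403). These were centred upstream of the gene, at -502 and -491 bp from its nearest TSS, and the HepG2 peak lay inside the K562 peak. CDK19, which encodes the Mediator kinase related to CDK8, had a K562 peak of 218 bp and HepG2 peaks of 121 and 17 bp inside it. CDK9, the kinase of P-TEFb, had 3 K562 peaks of 22, 37 and 70 bp, centred 400, 458 and 520 bp past a TSS in an intron. These were pieces of a single lower-confidence interval of 351 bp and not separate sites, and HepG2 had a lower-confidence interval of 130 bp across the latter 2. CDK7 and CDK8, encoding the CDK-activating kinase and a Mediator kinase, had overlapping lower-confidence intervals in both lines, and CDK12 had only a 58 bp lower-confidence HepG2 interval.

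CDK11A and CDK11B encode near-identical kinases linked to splicing and lie in a duplicated stretch of chromosome 1. CDK11A carried a 140 bp K562 peak and a 126 bp HepG2 peak that shared 33 bp. CDK11B had overlapping lower-confidence intervals of 262 and 217 bp and no peak. The windows of 2001 bp around the canonical starts of the genes aligned over 1953 bases, of which 98.4% were identical. Reads from one copy may therefore be placed on the other, or be lost, as the paper describes removal of reads of low mapping quality. The classes of this pair are uncertain.

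Of the 6 other kinases, CDK5 and CDK10 carried peaks in both lines. CDK5, encoding a kinase known for its role in neurons, had peaks of 348 bp (chr7:150755023-150755370) and 288 bp (chr7:150755045-150755332), with all 288 bp shared. Both CDK5 peaks were nearer to a TSS of the divergent neighbour SLC4A2 (91 and 99 bp) than to that of CDK5 (213 and 205 bp). CDK10, encoding the kinase of cyclin M, had a K562 peak of 204 bp over its canonical start (chr16:89752991-89753194) and a HepG2 peak of 337 bp 695 bp past that start (chr16:89753624-89753960). Neither CDK10 peak touched an interval of either list of the other line, unlike those of CCNE2 and CCNG1. CDK18 had lower-confidence intervals at different starts, 179 bp in K562 and 130 bp in HepG2, and its windows held 16 motifs, the most of the 45 genes. CDK14, CDK17 and CDK20 had no interval in any list, with 5, 5 and 0 motifs in their windows. Details of CDK6, CDK10, CCNE2, CCNG1 and the CDK11 pair were picked out after their values were seen.

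The CIP/KIP inhibitors were unlike each other. CDKN1A, encoding the p53 target p21, carried peaks of 165 bp in K562 (chr6:36646382-36646546) and 198 bp in HepG2 (chr6:36646320-36646517) with 136 bp shared. CDKN1C, encoding p57, an inhibitor from an imprinted locus, had a 341 bp K562 peak at chr11:2906989-2907329, a further K562 lower-confidence interval of 95 bp, and no HepG2 interval. Its peak had a GC content of 76.5% and held 2 motifs, which are shown because this was the only gene of the 45 with a K562 peak and no HepG2 interval. The first lies at chr11:2907137-2907162 on the transcript's strand and the second at chr11:2907285-2907308 on the opposite strand, with G runs in capitals.
CDKN1C motif a: GGGGGccGGGccgcggcGGGGcGGGG
CDKN1C motif b: GGGGcGGGGGcGGGagttaaaGGG
CDKN1B, encoding p27, had no K562 interval and HepG2 peaks of 16 bp (chr12:12870069-12870084) and 105 bp (chr12:12870159-12870263), pieces of a single lower-confidence interval of 308 bp. No motif lay in either CDKN1B piece.

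Among the INK4 inhibitors, CDKN2C and CDKN2D carried peaks in both lines. CDKN2D, encoding p19, had peaks of 352 bp (chr19:10679536-10679887) and 344 bp (chr19:10679579-10679922) over its start with 309 bp shared. CDKN2C, encoding p18, had 3 K562 peaks. The widest, of 327 bp at chr1:51425795-51426121, contained the HepG2 peak of 114 bp, and both lay upstream of the first start of CDKN2C, with centres 19 and 63 bp from a TSS of the neighbouring gene FAF1. The other K562 peaks of CDKN2C, of 109 and 171 bp, lay at a start inside the gene (chr1:51433872-51433980 and chr1:51434172-51434342), where HepG2 had lower-confidence intervals. From the canonical TSS of CDKN2C, the K562 centres lay at -9959, -1991 and -1660 bp and the HepG2 centre at -9916 bp. Scored at that TSS alone, CDKN2C had no interval in any list.

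CDKN2B, encoding p15, had no K562 interval and a lower-confidence HepG2 interval of 137 bp, and CDKN2A, encoding p16 and p14ARF, had no interval in any list despite 6 motifs in its windows. Within 1 Mb on either side of CDKN2A, K562 had 0 intervals of either list, and HepG2 had 0 peaks and 3 lower-confidence intervals. K562 is known to have lost both copies of this locus. Copy number was not measured in these libraries, and its part in the K562 result was not tested. The same count around CDKN1B gave 2 peaks and 6 lower-confidence intervals in K562 against 8 and 17 in HepG2. Around CDKN1C it gave 25 and 59 in K562 against 20 and 107 in HepG2, and around CCND1 10 and 29 against 7 and 38. The part of copy number at CDKN1B, CDKN1C and CCND1 was not tested either. CDKN3, encoding a phosphatase that acts on CDK1 and CDK2, had K562 peaks of 89 and 131 bp, and 189 bp of them lay in its HepG2 peak of 212 bp at chr14:54863484-54863695.

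The genes were then set together by role. Of the 19 cyclin genes, 13 had a K562 peak and 13 a HepG2 peak, and 11 had both, beside 35.7%, 30.7% and 24.3% of all coding genes. Of the 18 kinase genes, 9 had a K562 peak, 7 a HepG2 peak and 7 both, and 6 had lower-confidence intervals at most, the last beside 16.7% of coding genes. Among the 7 inhibitors and CDKN3, 5 had a K562 peak, 5 a HepG2 peak and 4 both. These differences were not tested.

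Differences between the lines in whole-gene class were few. CDKN1C was 1 of 45 genes (2.22%) with a K562 peak and no HepG2 interval, against 3.20% of coding genes. CCND1 and CDKN1B were 2 of 45 (4.44%) with the opposite pattern, against 2.43%. In 4 genes, CCNI, CCNL1, CDK6 and CDK9, a K562 peak stood against a lower-confidence HepG2 interval (8.89%, against 8.19% of coding genes). CCNT1 alone had a HepG2 peak and a lower-confidence K562 interval (2.22%, against 4.04%). With 1 to 4 genes in each of these patterns, nothing particular to the 45 genes was read from the shares.

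Within the 22 genes with peaks in both lines, the peaks overlapped in 19 and did not in CCNE2, CCNG1 and CDK10. Of the 33 K562 peaks of the 45 genes, 20 overlapped a HepG2 peak (60.6%, against 59.4% of the peaks at all coding genes), 8 a lower-confidence HepG2 interval only (24.2%, against 24.6%) and 5 no HepG2 interval (15.2%, against 16.0%). Of the 27 HepG2 peaks, 20 overlapped a K562 peak (74.1%, against 71.5%), 3 a lower-confidence interval only (11.1%, against 14.6%) and 4 none (14.8%, against 13.9%). For all coding genes, here and below, a peak was counted once for each gene whose windows it touched. This gave 8838 pairs of a gene and a peak from 7371 K562 peaks, and 7349 pairs from 6035 HepG2 peaks. The shares of the 45 genes were near those of all coding genes, so the overlaps are given as a description of single genes. The peaks without any interval of the other line were at CCND3, CDK6, CDK9, CDK10 and CDKN1C in K562, and at CCND1, CDK10 and CDKN1B in HepG2. In the 21 overlapping pairs, the K562 peak was wider in 12 and the HepG2 peak in 9, with median widths of 264 and 212 bp. The centres of a pair were apart by a median of 35.5 bp and at most by 145.5 bp, at CCNT2.

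**Figure D3:**
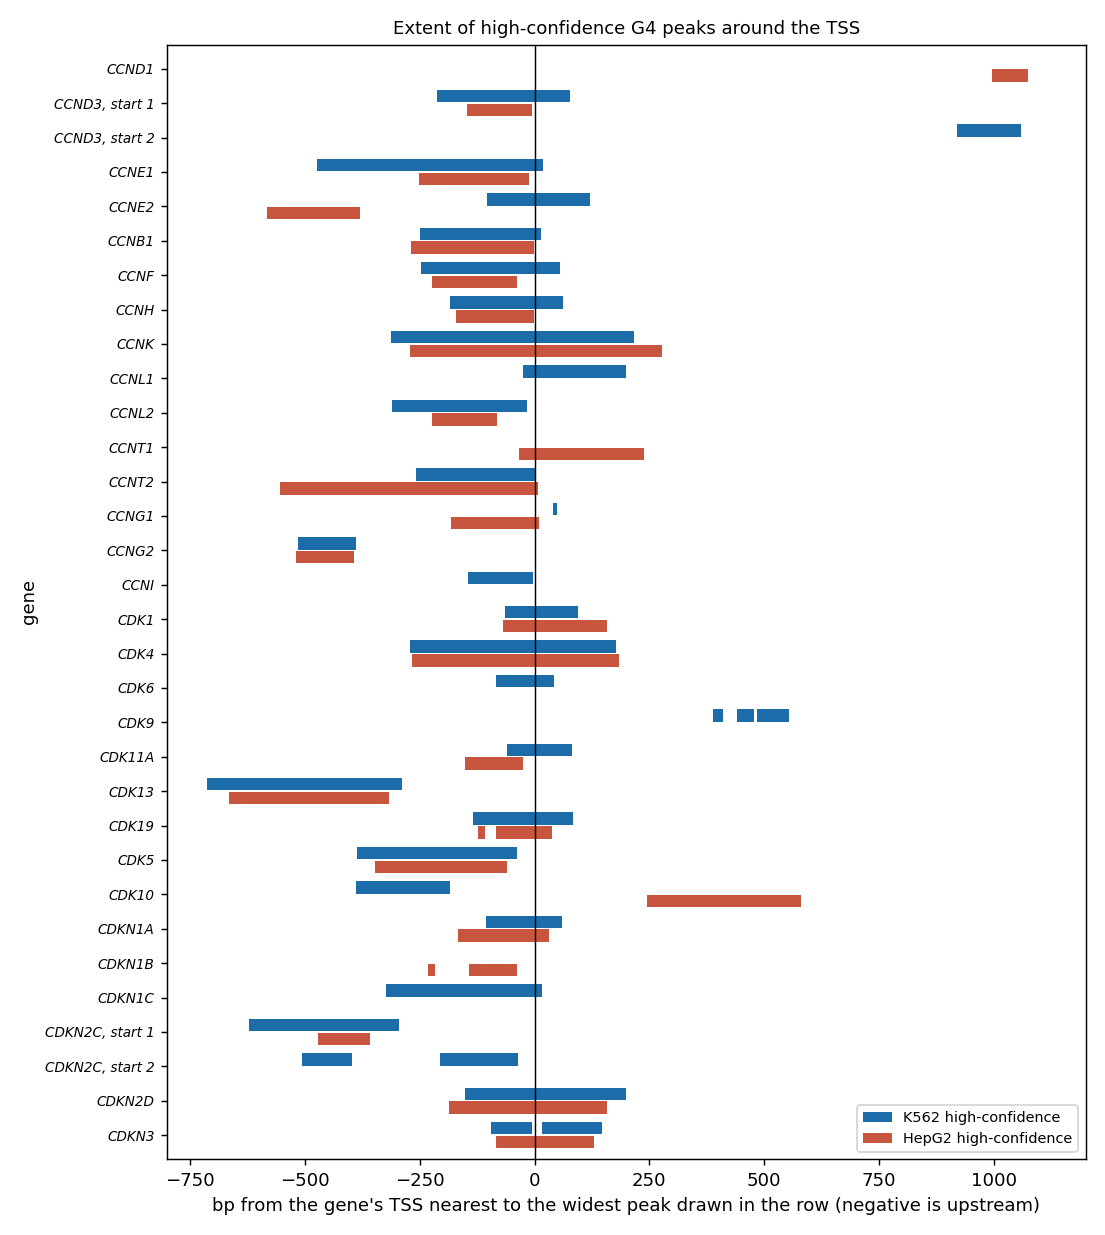
Extent of every peak of the 30 genes with a peak in at least 1 line, K562 in blue and HepG2 in red, in bp from the TSS of the gene that lies nearest to the widest peak drawn in the row. CCND3 and CDKN2C have a row for each of their separated starts. Bars of the lines lie over each other in 19 genes, sit apart in CCNE2, CCNG1 and CDK10, and reach farthest upstream in CDK13.

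Measured from the nearest TSS of the gene, the K562 peaks had a median position of -48.5 bp and the HepG2 peaks of -87.0 bp, against -59.2 and -70.5 bp for peaks at all coding genes. With 1 TSS a gene the medians of the 45 genes were -99.0 and -136 bp. Upstream centres made up 69.7% of the K562 and 74.1% of the HepG2 peaks, against 80.2% and 79.8%. Within 200 bp of a TSS lay 69.7% of the K562 and 66.7% of the HepG2 peaks, against 81.2% and 80.1%. Peaks farther out included those of CCNG2, CDK13, CDK9 and CCND1, and the HepG2 peaks of CCNE2 and CDK10. The 3 at CDK9 were pieces of 1 lower-confidence interval. The CDK5 peaks, the CDKN2C peaks beside FAF1 and the HepG2 peak of CCNE2 were also farther out, and were nearer to a TSS of another gene. Nothing particular to the 45 genes was read from these shares. A TSS of the gene was covered by 20 of the 33 K562 and 10 of the 27 HepG2 peaks. By annotation, the K562 peak centres lay upstream of the gene in 14 cases, in a UTR in 10, in an intron in 8 and in another exon in 1. Those of HepG2 lay upstream in 12, in an intron in 9, in a UTR in 4 and in another exon in 2. The peaks of the 45 genes had median widths of 218 bp in K562 and 198 bp in HepG2, and a median GC content of 69.3% and 66.5%, against 204 bp, 185 bp, 71.0% and 67.3% at all coding genes.

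G4 motifs of the definition used here were common in the windows, and most peaks of the 45 genes held none. The count inside peaks rose with looser settings, given below. In the paper, most G4 sites of both lines held sequences that form G4s in a polymerase stop assay in vitro. That is another measure than this motif. At least 1 motif lay in the windows of 37 of the 45 genes (82.2%), against 76.4% of coding genes, and these 37 held 195 motifs in all, 102 on the transcript's strand and 93 on the opposite one. Of the 195, 19 lay inside K562 peaks of 8 genes, 10 inside HepG2 peaks of 6 genes, and 6 inside peaks of both lines, at CCND3, CCNE1, CCNF and CCNK. All 6 were within 200 bp of a TSS, and 5 were on the transcript's strand. No interval of any list was touched by 160 motifs of 35 genes. Among genes with a peak, 8 of 27 (29.6%) had a motif inside it in K562 and 6 of 25 (24.0%) in HepG2, against 38.6% and 28.0% of coding genes with a peak.

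The presence of a peak was then set beside that of a motif. In K562, 41.5% of coding genes with a motif and 16.8% of those without one carried a peak, and in HepG2 34.7% and 17.8%. Longer windows could hold both more motifs and more peaks, and this was not separated. Of the 37 cyclin, CDK and inhibitor genes with a motif, 24 (64.9%) had a K562 peak and 21 (56.8%) a HepG2 peak. Of the 8 without one, 3 (37.5%) had a K562 peak and 4 (50%) a HepG2 peak. These 8 were CCNA2, CCNB1, CCNH, CCNT1, CDK7, CDK11B, CDK20 and CDKN3, of which CCNB1, CCNH and CDKN3 had peaks in both lines and CCNT1 in HepG2. The number of motifs did not order the classes: the median was 4 in genes with a K562 peak, 1.00 in those with a lower-confidence interval and 5.00 in those with none, and in HepG2 3.00, 2.50 and 5.50. The K562 class without an interval included CDKN2A, with 6 motifs, from the locus known to be lost in that line. CDK18 with 16 motifs and CCND2 with 15 had no peak in either line.

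**Figure D4:**
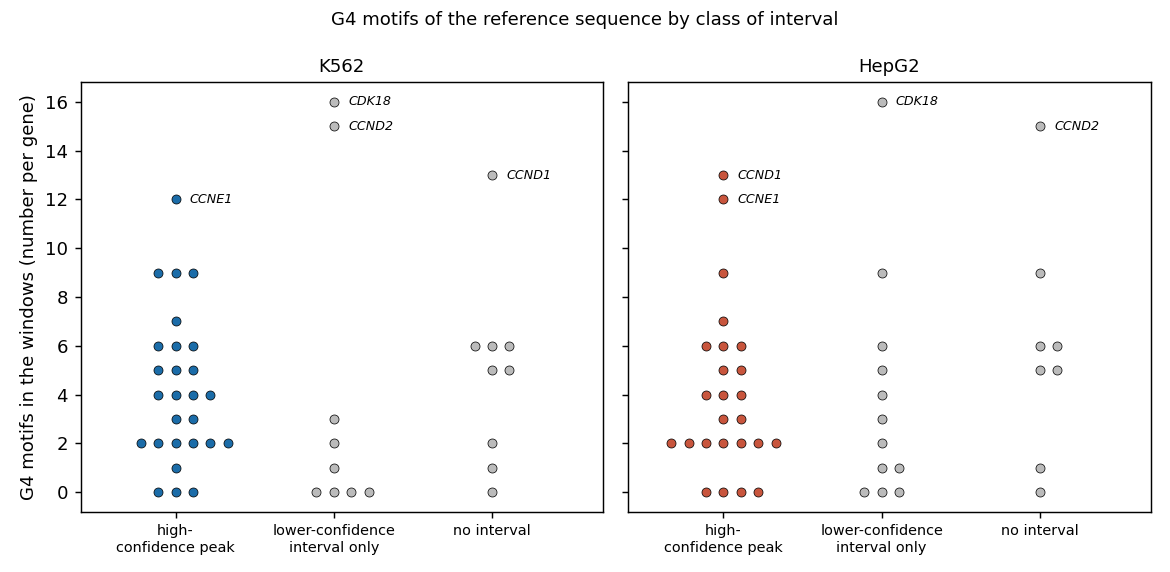
Number of G4 motifs in the scored windows of each gene (vertical axis), with 1 point a gene, split by the class of interval in K562 (left) and HepG2 (right). Genes without an interval span 0 to 13 motifs in K562 and 0 to 15 in HepG2, at least as wide a range as the genes with a peak.

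The RefSeq promoter sequences, from 250 bases before to 50 after a gene's start on GRCh38, held 40 of the 45 genes and 15318 coding genes. They were searched on both strands for elements known from cell cycle promoters and for the GC box. The GC box core GGGCGG was in 33 of the 40 promoters (82.5%), against 59.3% of all, and can overlap a G4 motif. CCAAT was in 16 (40.0%, against 36.6%), among them CCNA2, CCNB1, CCNB2, CCNF and CDK1. TTTGAA, the core of the cell cycle homology region, was in 5 (12.5%, against 12.1%), which were CCNB2, CCNF, CDK1, CDK19 and CDKN3. The E2F site letters TTTGGCGC were found at CDK11B and TTTCCCGC at CDK19, 1 promoter each (2.50%, against 0.914% and 2.19%). The G4 motif was in 10 of these shorter promoters (25%, against 30.7%). Such matches are letters in a sequence and say nothing of binding.

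A list of 41 further genes of the pathway, among them E2F factors, CDC25 phosphatases, ubiquitin ligase subunits and cyclins and kinases outside the 45, was scored in the same way. A K562 peak was found at 22 of them, a HepG2 peak at 20, and both at 17, beside 35.7%, 30.7% and 24.3% of coding genes. Lower-confidence intervals at most were found at 11 and no interval at 5, beside 16.7% and 41.1%. The partner genes with peaks in both lines included all 3 CDC25 genes, encoding the phosphatases that activate CDKs, and WEE1 and PKMYT1, encoding the kinases that oppose them. RB1, encoding the substrate through which cyclin D kinases act, had lower-confidence intervals only in both lines. The CDC25 genes, WEE1, PKMYT1 and RB1 were named by no rule set beforehand. A K562 peak and no HepG2 interval were found at 2 of the 41 genes, CUL1 and CCNQ, beside 3.20% of coding genes. TFDP2 alone had the opposite pattern, beside 2.43%.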

How the data were processed

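What the authors deposited are interval positions, in bp. They treated crosslinked chromatin with RNase A before immunoprecipitation. Reads were trimmed (cutadapt 1.16), mapped to hg19 (BWA 0.7.15) and cleared of duplicates (Picard 2.14.0, samtools 1.6). The paper also describes removal of reads of low mapping quality. Each replicate's peaks came from MACS2 2.1.1 at a q-value below 0.05, and bedtools 2.26.0 merged the replicates. Merged calls come in pieces where replicates differ, and weak peaks are lost below the replicate minimum. The labels name fewer libraries than were merged, and do not say which are which.

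Lists were compared on GRCh37 with GENCODE version 44 lifted to that build, with pysam 0.24.0 and Biopython 1.88 in Python 3.11.15. Motif matches were counted without overlap on each strand. Named in full were genes with a peak in 1 line and no interval in the other, genes without any interval, genes with at least 3 peaks in a line, the widest peaks, and per role the gene with most shared bases. The members and lists were chosen with earlier results of these data known. Counting code was checked on simulated intervals. No test was made. Some of the marker genes checked are not reported here.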

Additional observations from a re-analysis of the deposited data

How the results depend on the processing

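Of 75 alternative values, 64 stayed near the reported one. For counts this meant within 1.5 times the reported count. For positions it meant within a binomial interval for the median, taken from the ranked peak positions as if peaks were independent. The number of genes with a K562 peak ranged from 26 to 36 of 45, with a HepG2 peak from 22 to 37, with both from 19 to 33, and without any interval from 5 to 6, the upper values coming from the lower-confidence lists (36, 37 and 33 genes, against 50.1%, 51.2% and 42.5% of coding genes). Without peaks nearer to a TSS of another coding gene, 26, 22 and 19 genes had a K562 peak, a HepG2 peak and both. Among coding genes these were 30.7%, 25.9% and 19.5%. This setting was chosen after seeing the data, and it left CDK5 without an interval. With 1 TSS a gene, CDKN2C was left without an interval. The median K562 peak position, reported as -48.5 bp, lay farther upstream in every alternative, from -56.5 to -99 bp, the latter with 1 TSS a gene. The HepG2 median, reported as -87.0 bp, ranged from -136 to -87 bp.

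The counts of line-specific genes, which are small, moved with several settings. A K562 peak without a HepG2 interval was found at 2 genes with 1 kb upstream only (CDK10 and CDKN1C) and with 1 TSS a gene (CDK6 and CDKN1C). A HepG2 peak without a K562 interval was left at 1 gene, CDKN1B, with 1 kb upstream only, with 500 bp either side, with protein-coding transcripts only, with 1 TSS a gene, with the peak centre required inside the window, and with at least 50 bp shared: each dropped CCND1, whose peak lay 5 bp inside a window. The number of genes with a motif inside a peak moved furthest, from 8 in K562 and 6 in HepG2. With loops of up to 12 bases, 13 genes had a motif inside a K562 peak. With runs of at least 2 G, 24 genes had one in K562 and 22 in HepG2. The shares of all coding genes were not computed at these looser motif settings. Nothing particular to the listed genes was therefore read from these motif counts. No paired analysis was possible because the lists hold no value per replicate, and leaving out a replicate was not possible for the same reason. Depth is unknown, so a missing interval is no measure of absence.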

Other observations

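Width and fragmentation of peaks differed among genes that share a class. In K562, 30 lower-confidence intervals at the 45 genes contained a peak, and 2 of them, at CDK9 and CDKN3, contained more than 1. In HepG2 the numbers were 25 and 2, at CDK19 and CDKN1B. At CDK9 the 3 pieces added up to 129 of 351 bp, at CDKN1B the pieces added up to 121 of 308 bp, and at CCNG1 the K562 peak was 7 of 455 bp, so a count of peaks at these genes is a count of pieces. CCNK (chr14:99947193-99947722 in K562) and CDK4 kept wide and nearly equal intervals in both lines. These genes were picked out after their values were seen.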
